A study of Mus musculus with 12 samples.

Results

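Iapp and Tac4 encode precursors of small secreted peptides, and they are 2 of the 16385 genes measured by RNA-Seq in AtT-20 cells. This line comes from a mouse pituitary tumor and stands for corticotropes, the pituitary cells that make ACTH from the Pomc precursor. Both were picked by gene symbol for their measured levels, Iapp for a high level in Pax7-465 cells and Tac4 for a difference between the GL+ isoforms of Pax7. Levels of Iapp in Pax7-465 cells and of Tac4 in GL+ cells are therefore given as a description without a test. The tests of Iapp and Tac4 concern only comparisons without the groups named in the choice of that gene. A high level in Pax7-465 cells is judged against the other groups, so the Iapp tests are not fully independent of the choice. Both genes reached at least 1 FPKM (fragments scaled to transcript length and to the size of the library) in all 12 libraries, and they are therefore among the 12578 genes tested.

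Iapp encodes islet amyloid polypeptide, or amylin, a peptide of the calcitonin family that pancreatic beta cells co-secrete with insulin and that slows gastric emptying and limits food intake. Its precursor is cut by prohormone convertases, trimmed by carboxypeptidase E and amidated at its C-terminus, and these steps also serve other peptide hormones. Tac4 encodes the precursor of hemokinin, a tachykinin related to substance P that acts mainly through the NK1 receptor and is known from blood cell lineages rather than from the pituitary. Pax7 is the pioneer transcription factor of melanotropes, the Pomc cells of the intermediate pituitary lobe, and binds DNA through a paired domain and a homeodomain.

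The study asked which features of Pax7 are needed to open chromatin, using natural variants of its paired domain and truncated forms. RNA-Seq was used there beside assays of DNA binding and of chromatin. Alternative splicing adds a glutamine (Q) or a glycine-leucine pair (GL) to the paired domain, and cells with Pax7 Q-GL- (neither insertion), Pax7 Q-GL+ (GL alone) and Pax7 Q+GL+ (both) were compared with cells expressing the related factor Pax3, the mutant Pax7-465 and a Pax7 labelled NoTag. Each of the 6 groups had 2 libraries. According to the study's methods, Pax7 constructs were brought stably into AtT-20/D16v-F2 cells with the pLNCX2 retrovirus, in which the CMV promoter drives the introduced factor, and each population is a pool of many Geneticin-resistant colonies. The methods do not describe the vector for Pax3. The methods describe a 3xFlag tag at both ends of the Pax7 constructs, and the NoTag label gives neither an isoform nor details of its construct. Pax7-465 is named after residue 465, and the paper describes it as a deletion of C-terminal sequences that Pax3 lacks. Gene-level values cannot show where its protein ends. The paper's supplement labels the Pax7 mutants Q+GL-, so Pax7-465 would differ from Q-GL- by Q as well as by the deletion. Cells without an introduced factor and cells labelled Q+GL- were not analysed here. All measurements are of bulk RNA, so fewer cells expressing a gene and less RNA per expressing cell cannot be told apart.

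Pax7 was at 93.9 to 113 FPKM in the Pax7 libraries other than NoTag, at 157 to 159 FPKM in NoTag and at about 0.160 FPKM in both Pax3 libraries. The corticotrope factor Tbx19 was at 116 to 134 FPKM in the 10 libraries other than NoTag, and Pomc at 5112 to 9158 FPKM. The growth hormone releasing hormone receptor gene Ghrhr, a somatotrope marker, was listed at 0 in these 10 libraries. The NoTag libraries stood apart, with a summed FPKM of 627305 to 666609 against 413794 to 483161 in the other libraries. They held 733 genes above 0 that were listed at 0 in the other 10. No difference between groups tested below involves them, but they are part of the gene filter and of the fit that estimates the spread. Without read counts the depth behind each value is unknown, and the spread between the 2 libraries of a group is the only error given.

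In the GRCm38 annotation Iapp lies at chr6:142298423-142303961 on the plus strand, a span of 5539 bp, and Tac4 at chr11:95261529-95269265 on the plus strand, a span of 7737 bp. The coding transcript of Iapp has 3 exons with 839 bp in all, of which 279 bp code, and a shorter transcript with 2 exons is annotated as non-coding. That of Tac4 has 4 exons with 1251 bp, of which 384 bp code. The annotation places Iapp within Slco1a5, a transporter gene on the opposite strand that has no row in the table used here, whereas no other annotated gene overlaps Tac4. Whether strand was used in counting is not given in the sources used here, so reads of Iapp and of Slco1a5 cannot be told apart. The 250 bases before the RefSeq start of each gene in GRCm38.p6 are shown because Pax7 has a homeodomain, and the core letters of homeodomain sites, TAAT on either strand, are in capitals.
Iapp, chr6:142298175-142298424, plus strand: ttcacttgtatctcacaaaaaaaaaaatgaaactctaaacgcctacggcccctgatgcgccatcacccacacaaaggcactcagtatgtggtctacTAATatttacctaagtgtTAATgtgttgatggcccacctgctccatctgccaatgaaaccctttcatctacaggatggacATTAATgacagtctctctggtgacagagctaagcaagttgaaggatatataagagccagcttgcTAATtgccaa
Tac4, chr11:95261279-95261528, plus strand: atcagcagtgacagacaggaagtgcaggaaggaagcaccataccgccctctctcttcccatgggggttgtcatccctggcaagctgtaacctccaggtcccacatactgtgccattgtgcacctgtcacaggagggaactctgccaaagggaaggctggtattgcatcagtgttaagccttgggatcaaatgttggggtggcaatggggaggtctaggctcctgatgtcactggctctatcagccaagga
The Iapp window held 5 matches to TAAT or its reverse complement ATTA, beginning 154, 136, 74, 72 and 10 bases before the start, of which those at 74 and 72 overlap. The Tac4 window held 0. Of 32851 RefSeq promoter windows of this length, 54.9% held at least 1 match and 5.54% held at least 5. GC content was 42.8% in the Iapp window and 54.4% in the Tac4 window, and the shares over all windows are not matched for it. Inverted pairs, with TAAT followed after 2 or 3 bases by ATTA, the paired domain core GTCACG and the T-box half-site TCACACC, which were also searched on both strands, had no match in either window and occur in 0.384%, 0.463%, 6.93% and 3.33% of all windows. These matches describe letters, and no binding was measured in the files used here.

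Iapp RNA was most abundant in Q-GL- cells, at 32.4 and 30.5 FPKM (31.5 ± 1.28, SD, n = 2). Pax7-465 cells followed with 23.1 and 23.6 FPKM (23.4 ± 0.374). So Iapp was high in Pax7-465 cells, but the Q-GL- level was 1.35 times higher, and the Pax7-465 level was not the highest among the groups. Iapp was at 12.8 and 11.4 FPKM (12.1 ± 0.956) in Q-GL+ cells and at 9.93 and 9.61 FPKM (9.77 ± 0.227) in Pax3 cells. Q+GL+ cells had the lowest level, at 6.69 and 7.31 FPKM (7.00 ± 0.439). The NoTag libraries held 29.4 and 27.2 FPKM, between the Q-GL- and Pax7-465 libraries. The libraries of neighbouring groups in this order did not overlap, and Iapp spanned a 4.84-fold range over the 10 libraries other than NoTag.

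Among all genes of the table, Iapp stood from near the middle of the distribution to its upper part, depending on the group. Between 50.4% and 51.5% of genes lay below it in Q+GL+ libraries, 57.3% to 59.1% in Pax3 libraries, 61.5% to 63.2% in Q-GL+ libraries, 77.2% to 77.6% in Pax7-465 libraries and 82.2% to 83.2% in Q-GL- libraries. Measured against Pomc, the main hormone precursor of these cells, Iapp was a minor transcript in every group, at 0.354% of the Pomc level in Q-GL- cells, 0.299% in Pax7-465 cells, 0.175% in Q-GL+ cells, 0.172% in Pax3 cells and 0.109% in Q+GL+ cells. FPKM are scaled to transcript length, so levels of different genes can be set side by side, but only roughly. Whether exons alone were counted and whether strand was used are not given.

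**Figure D1:**
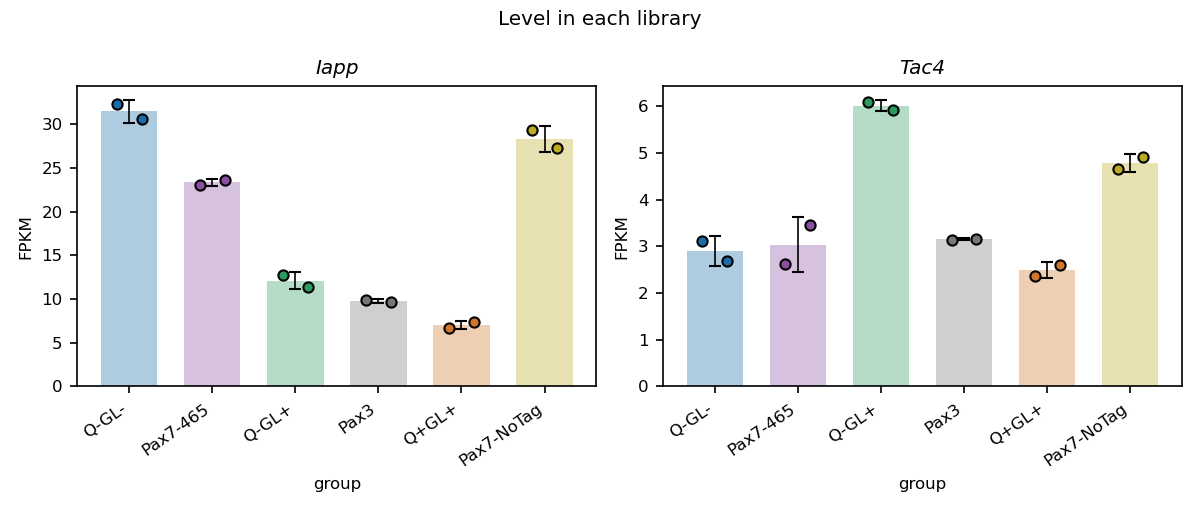
Level of Iapp (left) and Tac4 (right) in FPKM in each of the 6 groups. Points are the 2 libraries of a group, bars their mean and error lines their SD; Iapp is highest in Q-GL- cells (31.5 FPKM) and lowest in Q+GL+ cells (7.00 FPKM), and Tac4 is highest in Q-GL+ cells (6.02 FPKM).

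Q-GL- cells held more Iapp than cells of either GL+ isoform, of which Q-GL+ differs from Q-GL- by GL alone and Q+GL+ by both Q and GL. Differences below are of log2(FPKM + 1) from 1 limma fit across all 12578 genes, with Benjamini-Hochberg adjustment and a threshold of 0.05. Set against Q-GL+ cells, Iapp was higher in Q-GL- cells with a difference of 1.31 (standard error 0.08, adjusted p = 5.6e-06), and 4.17% of all genes passed the test in this comparison. Set against Q+GL+ cells the difference was 2.02 (standard error 0.08, adjusted p = 7.3e-08), with 2.15% of all genes past the test. In FPKM the Q-GL- level was 2.60 times the Q-GL+ level and 4.49 times the Q+GL+ level.

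Between the GL+ isoforms, which differ by Q, the Q+GL+ cells held less Iapp. The difference was -0.71 (standard error 0.08, adjusted p = 0.0016), in a comparison in which 0.962% of all genes passed. Both Q+GL+ libraries lay below both Q-GL+ libraries.

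Against Pax3 cells, Iapp was higher in Q-GL- cells and did not pass the test in either GL+ isoform. In Q-GL- cells the difference was 1.59 (standard error 0.08, adjusted p = 4.0e-07), and the Q-GL- level in FPKM was 3.22 times the Pax3 level. The test called 4.33% of all genes in this comparison. For Q-GL+ minus Pax3 the difference was 0.28 (95% interval 0.10 to 0.46, adjusted p = 0.21), with 0.708% of all genes called. For Q+GL+ minus Pax3 it was -0.43 (95% interval -0.61 to -0.25, adjusted p = 0.061), with 0.262% called. Although neither was called, both 95% intervals, which are not adjusted for the number of genes, lie on 1 side of 0, and the second difference passed under 3 of 13 other settings. Iapp thus passed the test in 4 of the 6 comparisons tested.

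For Iapp, the level in Pax7-465 cells stood between that in Q-GL- cells and those in the remaining groups. As a description, Pax7-465 minus Q-GL- was -0.41, Pax7-465 minus Q-GL+ was 0.90, Pax7-465 minus Q+GL+ was 1.61 and Pax7-465 minus Pax3 was 1.18, each with a standard error of 0.08. In FPKM the Pax7-465 level was 0.742 times that in Q-GL- cells, 1.93 times that in Q-GL+ cells, 3.34 times that in Q+GL+ cells and 2.39 times that in Pax3 cells.

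**Figure D2:**
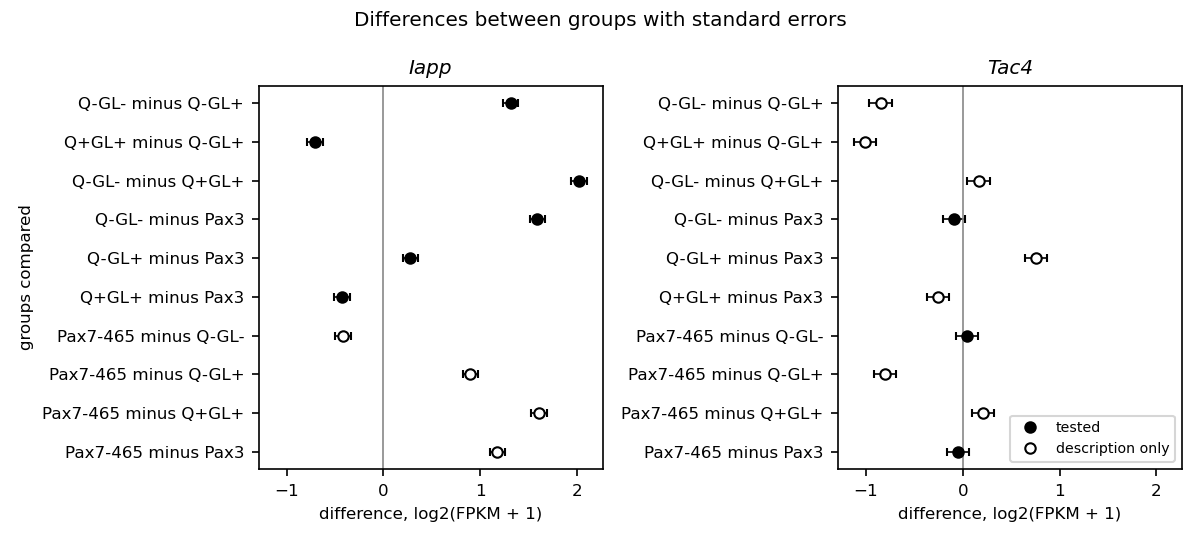
Differences of log2(FPKM + 1) between groups for Iapp (left) and Tac4 (right), as the first named group minus the second. Filled points were tested and open points are a description; lines are standard errors from the limma fit. Of the Iapp differences shown, Q-GL- minus Q+GL+ is the largest (2.02), and for Tac4 the differences that involve Q-GL+ cells lie farthest from 0.

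Tac4 was a low transcript, and its order among the groups was not that of Iapp. Its level was highest in Q-GL+ cells, at 6.10 and 5.93 FPKM (6.02 ± 0.117, SD, n = 2). Q+GL+ cells, the other GL+ isoform, had the lowest level, at 2.36 and 2.60 FPKM (2.48 ± 0.171). These are the values that chose Tac4. Between them were Pax3 cells with 3.14 and 3.16 FPKM (3.15 ± 0.0200) and Pax7-465 cells with 2.63 and 3.45 FPKM (3.04 ± 0.580). Q-GL- cells held 3.13 and 2.68 FPKM (2.90 ± 0.315). The Pax3, Pax7-465 and Q-GL- libraries overlapped, so these neighbours in the order did not differ beyond their spread. The NoTag libraries held 4.65 and 4.92 FPKM, below both Q-GL+ libraries and above the remaining ones. Tac4 spanned a 2.58-fold range over the 10 libraries other than NoTag, and it stood at 0.0328% to 0.0872% of the Pomc level in their groups.

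For Tac4 the comparisons without a GL+ isoform could be tested, and it passed in 0 of 3 by limma, with 0 of 3 also at an unadjusted p under 0.05. Q-GL- minus Pax3 was -0.09 (95% interval -0.34 to 0.16, adjusted p = 0.74). Pax7-465 minus Q-GL- was 0.04 (95% interval -0.21 to 0.30, adjusted p = 0.93), where 0.445% of all genes passed. Pax7-465 minus Pax3 was -0.05 (95% interval -0.30 to 0.20, adjusted p = 0.94), where 1.16% passed. Together these intervals, which are not adjusted for the number of genes, reach from -0.34 to 0.30, so the tests do not show that the groups are alike.

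Differences of Tac4 that involve the GL+ isoforms are a description. Q+GL+ minus Q-GL+ was -1.01, Q-GL- minus Q-GL+ was -0.85, Pax7-465 minus Q-GL+ was -0.80 and Q-GL+ minus Pax3 was 0.76, each with a standard error of 0.12. Those of Q+GL+ cells with the groups other than Q-GL+ were smaller, at 0.16 for Q-GL- minus Q+GL+, 0.21 for Pax7-465 minus Q+GL+ and -0.25 for Q+GL+ minus Pax3. The high level of Tac4 thus lay in Q-GL+ cells, while both GL+ isoforms were low in Iapp when set beside Q-GL- cells. Across the 10 libraries other than NoTag, which share these groups, Pearson's r of Iapp with Tac4 was -0.05 on log2(FPKM + 1).

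The other tachykinin ligands have no row in the table used here, so Tac4 has no family member beside it. The list of other calcitonin family ligands has 3 genes in the table, Calca (calcitonin and CGRP), Adm (adrenomedullin) and Adm2 (intermedin). None of the 3 passed in any of the 9 comparisons by limma, with up to 2 at an unadjusted p under 0.05. With 0.262% to 4.33% of all genes called, 0 of 3 does not set these ligands apart. In Q-GL- minus Q+GL+, where Iapp differed by 2.02, Adm2 differed by 0.31 (adjusted p = 0.066), Calca by 0.37 (adjusted p = 0.16) and Adm by 0.10 (adjusted p = 0.77). In the 10 libraries other than NoTag, Calca was at 10.4 to 16.0 FPKM, Adm at 12.5 to 18.7 FPKM and Adm2 at 20.2 to 26.4 FPKM. Iapp lay below the lowest Calca library in all Q+GL+ and Pax3 libraries and above the highest Adm2 library in both Q-GL- libraries.

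Amylin receptors form from the calcitonin receptor and a RAMP protein, and the genes of the calcitonin receptor and of the NK1 receptor have no row in the table used here. Of the RAMP genes in the table, Ramp2 was at 0.372 to 2.12 FPKM and Ramp3 at 0.0424 to 0.323 FPKM in the 10 libraries. Crcp, a CGRP receptor component, was at 21.1 to 26.7 FPKM. Ramp2 and Crcp passed the filter and were called in 0 of 9 comparisons by limma, with at most 1 of the 2 at an unadjusted p under 0.05. Of all genes 0.262% to 4.33% were called, so 0 of 2 does not set them apart. Tacr2, the 1 tachykinin receptor gene with a row, was at 0.0669 to 0.249 FPKM and was not tested.

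Among peptide precursors more widely, Iapp changed its rank with the introduced factor. Of 87 precursor genes listed, 22 have a row in the table, and 16 of these were above 0 in all 10 libraries other than NoTag. Iapp ranked 4 of 22 in Q-GL- cells, 5 in Pax7-465 cells and 9 in Q-GL+, Pax3 and Q+GL+ cells. Tac4 ranked 10 in Q-GL+ and Pax3 cells and 11 in Q-GL-, Pax7-465 and Q+GL+ cells. In NoTag cells the ranks were 4 for Iapp and 9 for Tac4. Pomc and Vgf, a granin-like precursor, ranked above Iapp in every group.

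Agt, which encodes angiotensinogen, was the precursor with the most calls. In Q-GL- cells it stood at 45.2 and 43.3 FPKM, above Q-GL+ cells by 1.08 (adjusted p = 1.0e-05), Q+GL+ cells by 1.30 (adjusted p = 2.0e-06) and Pax3 cells by 1.45 (adjusted p = 5.0e-07). In Pax7-465 cells it was at 23.6 and 25.4 FPKM, lower than in Q-GL- cells by -0.83 (adjusted p = 9.8e-04) and higher than in Pax3 cells by 0.62 (adjusted p = 0.0021). The Agt level in Pax7-465 cells lay nearer to that in Q-GL+ cells, at 21.2 and 19.6 FPKM, than to that in Q-GL- cells. Pomc rose by 0.63 (adjusted p = 0.015) and Sct, the secretin gene, fell by 0.64 (adjusted p = 0.018) in Q-GL- against Pax3 cells, and leaving out Pax3 replicate 1 or Q-GL- replicate 1 took either call away, as did leaving out Q-GL- replicate 2 for Pomc and Pax3 replicate 2 for Sct.

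The comparisons that chose Iapp and Tac4 held no other precursor past the test. In Pax7-465 minus the mean of Q-GL-, Q-GL+, Q+GL+ and Pax3, 0 of 14 tested precursors other than Iapp and Tac4 passed by limma and 3 had an unadjusted p under 0.05. All genes gave 0.453% called. In Q+GL+ minus Q-GL+, 0 of 14 passed and 2 had an unadjusted p under 0.05, where 0.962% of all genes were called. At these shares a count of 0 among 14 does not set the precursors apart. The median difference of the 14 precursors was -0.02 and 0 in these comparisons, against -0.01 and 0.01 over all genes tested, and 2 of the 14, Cck and Uts2, were listed at 0 in all 10 libraries and reached the filter through NoTag. With quantile normalization 1 and 2 precursors passed.

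**Figure D3:**
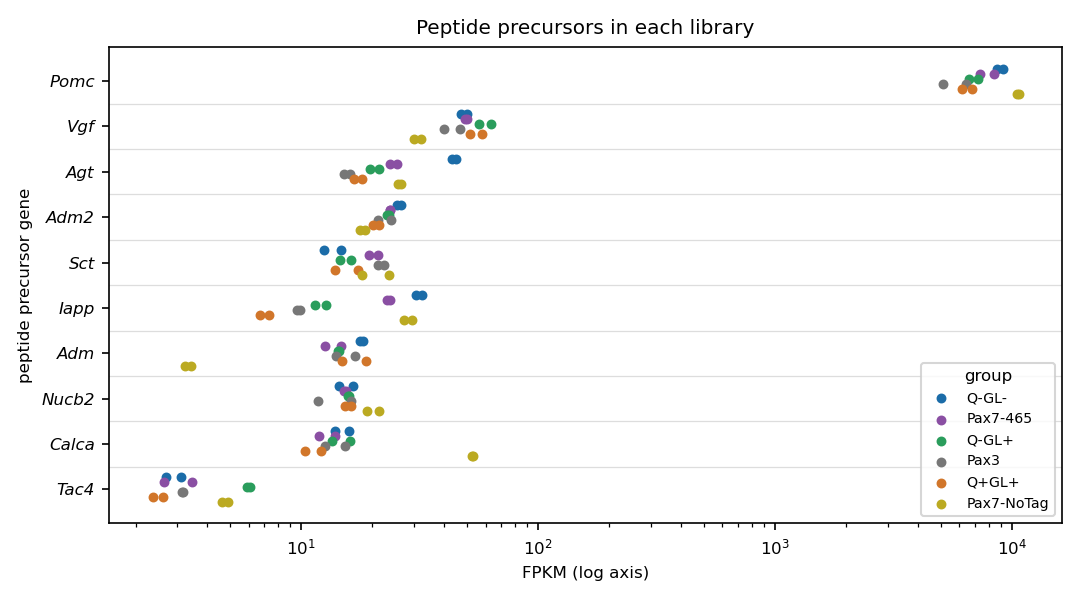
FPKM on a log axis of the 9 peptide precursor genes whose mean reached 10 FPKM in some group, and of Tac4, in each of the 12 libraries, coloured by group. Iapp spreads from 6.69 to 32.4 FPKM over the libraries other than NoTag, whereas Adm2 and Nucb2, the nesfatin precursor, vary within 20.2 to 26.4 and 11.8 to 16.6 FPKM.

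Enzymes that mature peptide precursors were abundant, and some moved in the same comparisons as Iapp. Of 12 listed, 11 were in the table and tested. The list was made with earlier results of these data known, and the paper reports more Pcsk2 RNA with GL- than with GL+ isoforms. Counts over this list, here and in the comparisons that follow, are therefore a description. In Q-GL- minus Q-GL+, 4 of the 11 rose and 0 fell, where 4.17% of all genes passed in either direction, and the median was 0.24 against 0.04 over all genes. Pcsk2, the convertase PC2 that is typical of melanotropes, was higher by 1.14 (adjusted p = 5.8e-06), with 35.8 and 36.6 FPKM in Q-GL- and 16.2 and 15.4 FPKM in Q-GL+ cells. Pam, which amidates peptides, was higher by 0.77 (adjusted p = 3.6e-04). Scg5, the PC2 chaperone, and Pcsk1, the convertase PC1/3, were higher by 0.52 and 0.47 (adjusted p = 0.015 each), and neither call survived leaving out any of the 4 libraries compared.

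Against Q+GL+ cells, 3 of the 11 enzymes were higher in Q-GL- cells, where 2.15% of all genes passed, and against Pax3 cells 4 were, where 4.33% passed, while none of the 11 was lower in either comparison. Pcsk2 was higher by 1.51 (adjusted p = 3.6e-07) and 0.97 (adjusted p = 1.4e-05). Among the others, leaving out any of the 4 libraries took away the Scg5 call against Q+GL+ cells. The Pam call there was lost without Q+GL+ replicate 1 or Q-GL- replicate 2, and that against Pax3 cells without Q-GL- replicate 2. Over all settings the Pam difference stayed at 0.53 to 0.63 against Q+GL+ cells and 0.41 to 0.58 against Pax3 cells. A group left with 1 library has a larger error, so a lost call need not mean a smaller difference. Q+GL+ minus Q-GL+ gave -0.36 for Pcsk2 (adjusted p = 0.044), the direction of Iapp, but the call did not survive when any of the 4 libraries or both NoTag libraries were left out. In Pax7-465 cells Pcsk2 was at 20.8 and 22.0 FPKM, lower than in Q-GL- cells by -0.73 (adjusted p = 0.0010), and Pam was lower by -0.54 (adjusted p = 0.019), a call lost when any of the 4 libraries was left out. Carboxypeptidase E, from Cpe, was at 491 to 701 FPKM and was not called. The 5 tested enzymes that degrade peptides include the insulin-degrading enzyme gene Ide, which also cleaves amylin and was at 37.8 to 43.8 FPKM. None of the 5 was called in any of the 9 comparisons by limma, with at most 2 at an unadjusted p under 0.05. The smallest adjusted p was that of Bace2 in Pax7-465 minus Pax3, at a difference of 0.44 (adjusted p = 0.076). Since 0.262% to 4.33% of all genes passed, 0 of 5 does not set them apart.

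Of 21 listed markers and regulators of pancreatic islets, 8 were in the table and 6 were tested. They passed in 0 of the 9 comparisons by limma, with at most 3 of the 6 at an unadjusted p under 0.05, and since 0.262% to 4.33% of all genes passed, a count of 0 among 6 genes does not set them apart. Insm1, an endocrine zinc finger factor, was at 44.8 to 56.5 FPKM, and the islet and neural factors Pax6 and Neurod1 were at 8.22 to 9.84 and 11.5 to 14.8 FPKM. Mafa, the beta cell factor, was at 0.205 to 0.666 FPKM, and Glp1r, the incretin receptor gene, was listed at 0 in the 10 libraries other than NoTag.

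The table holds 3 genes within 250 kb of Iapp, namely Pyroxd1, a redox enzyme gene, Recql, a DNA helicase gene, and Golt1b, a Golgi transport gene. They were called in 0 of 9 comparisons by limma, with at most 1 of the 3 at an unadjusted p under 0.05, and with 0.262% to 4.33% of all genes called, 0 of 3 does not set the neighbourhood apart. Around Tac4 the table holds 11 genes, of which 7 were tested, including the acetyltransferase gene Kat7 that lies next to it and the ubiquitin ligase adaptor gene Spop. Fam117a was the 1 gene called, in comparisons where 4.17% and 2.15% of all genes passed. Q-GL- minus Q-GL+ was -0.30 (adjusted p = 0.040) and Q-GL- minus Q+GL+ was -0.50 (adjusted p = 0.0039) for this gene, and the first call was lost when any of the 4 libraries or both NoTag libraries were left out and the second without Q+GL+ replicate 1 or Q-GL- replicate 2. In Q+GL+ minus Q-GL+, the comparison that chose Tac4, 0 of the 7 were called and 2 had an unadjusted p under 0.05. Of all genes 0.962% were called there, so 0 of 7 does not set the neighbourhood apart.

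The genes most like each member were found by Pearson's r on log2(FPKM + 1) over the 10 libraries other than NoTag, among 12536 genes, and these are descriptions in which the points share their groups. For Iapp, 61 genes had r over 0.9 and 20 had r under -0.9. The 5 highest were Fut8, the core fucosyltransferase, at 0.989, Sat1, a polyamine acetyltransferase, at 0.981, Entpd3, an ectonucleotidase, at 0.981, Aldh1l2, a mitochondrial folate enzyme, at 0.978 and Pgc, the pepsinogen C precursor, at 0.973. Entpd3 was at 14.8 and 15.5 FPKM in Q-GL- cells, 10.2 and 11.9 in Pax7-465 cells, 7.15 and 7.07 in Q-GL+ cells, 7.02 and 6.88 in Pax3 cells and 5.35 and 5.88 in Q+GL+ cells. Its groups stood in the same order as those of Iapp, which ranking by r with Iapp over these libraries favours. Its Q-GL+ and Pax3 libraries were close to each other. Fut8 had a narrower range, from 21.6 to 34.5 FPKM, than Iapp. The melanotrope gene Oacyl, named here after its values were seen, had r = 0.949 with Iapp and Pcsk2 had r = 0.922. The other listed melanotrope markers were lower, with Pomc at 0.828, Megf11 at 0.713, Pax7 at 0.345 and Tbx19 at -0.570.

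For Tac4, 14 genes had r over 0.9 and 8 had r under -0.9. The 5 highest were Trp53i11, a p53-inducible gene, at 0.942, Cst6, a secreted cystatin, at 0.932, Ppif, the mitochondrial cyclophilin, at 0.931, Fxyd3, a regulator of the sodium pump, at 0.928 and Pcp4, a calmodulin regulator, at 0.919. Pcp4 was at 29.7 and 30.2 FPKM in Q-GL+ cells and at 12.5 to 18.7 FPKM in the other 8 libraries. Like Tac4, each of the 5 had both of its Q-GL+ libraries above all others of the 10. Ranking by r with Tac4 over these libraries favours genes with this peak, so it is not a separate result. In NoTag cells, which were not used for the ranking, Cst6 was at 33.6 and 33.2 FPKM, far above its 1.81 to 3.99 FPKM in the 10 libraries.

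**Figure D4:**
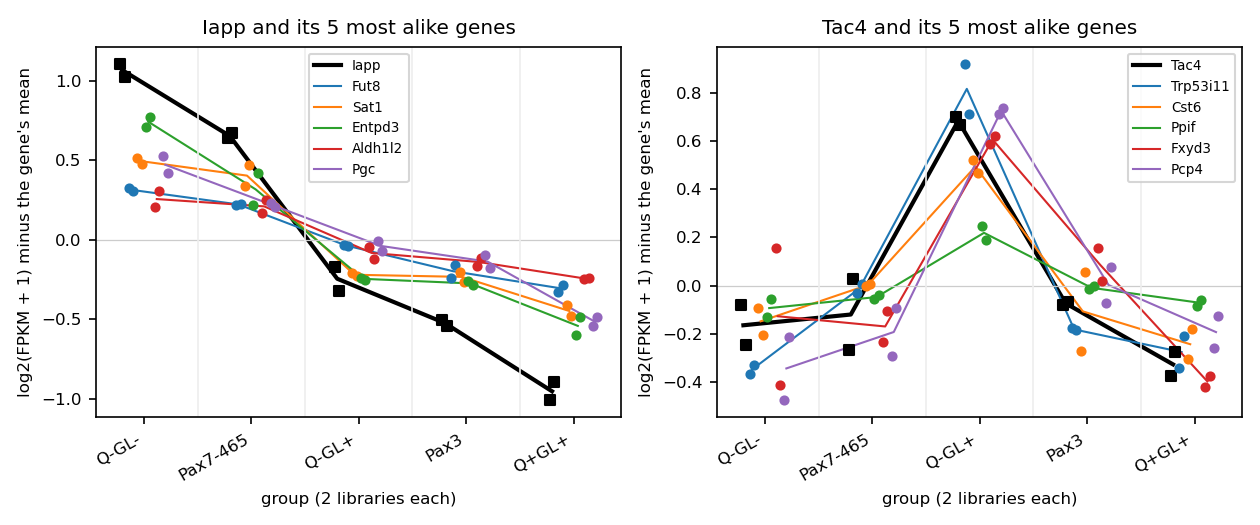
Iapp (left) and Tac4 (right) with the 5 genes of highest Pearson's r, as log2(FPKM + 1) minus each gene's mean over the 10 libraries other than NoTag. Points are libraries and lines join group means. The Iapp set falls from Q-GL- to Q+GL+ cells (r of 0.973 to 0.989), and the Tac4 set peaks in Q-GL+ cells (r of 0.919 to 0.942). Both shapes follow from choosing genes by r over these libraries.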

How the data were processed

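RNA-Seq values were deposited by the authors as FPKM per gene in 1 table of 16385 genes. Per the study's methods and the submitters' processing notes, total RNA was depleted of ribosomal RNA, libraries were stranded and read from both ends, and Trimmomatic (trimming), TopHat2 (mapping to GRCm38, mm10, without new junctions) and HOMER (quantification) were used. For RNA-Seq, tool versions, the total used for scaling, and whether HOMER counted exons alone or used strand are not given in the sources used here. These choices could change the Iapp level, since Iapp lies within another gene. The authors name edgeR, which takes counts, for their own tests. The table holds none, so limma was used.

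The 12 libraries mapped by title to 6 groups of 2, and 4 further columns of values per sample match no sample here and were not used. The methods call samples biological replicates without naming separate infections, so p-values measure only the spread between these libraries. Genes that reached 1 FPKM in 2 or more libraries, 12578 in all, entered 1 limma fit on log2(FPKM + 1) with trend and robust options, 1 coefficient per group and Benjamini-Hochberg adjustment over all genes at 0.05. Adding 1 before the logarithm understates changes of low genes such as Tac4. The steps were tested on simulated data. Comparisons share libraries and are not independent.

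The members, the gene lists (11 in all) and the comparisons were chosen with earlier results of these data known. Genes named are Iapp and Tac4, calcitonin and tachykinin family genes, up to 6 list genes per comparison with the smallest adjusted p, precursors with a group mean of at least 10 FPKM, the 5 most alike genes per member, genes within 250 kb, and Pax7 and Tbx19 as checks. Others were named after their values were seen. Promoter sequences are from RefSeq (GRCm38.p6), where both genes matched by symbol, and gene models from GENCODE for GRCm38. Alternatives were quantile normalization, median centring, a pseudocount of 0.1, no trend, a filter of 5 FPKM, any value above 0 in place of the filter, fits of only the groups compared or without NoTag, a replicate block and each library left out in turn. Software was Python 3.11.15 (matplotlib 3.10.9, numpy 2.4.6, pandas 2.3.3) and R 4.3.3 (statmod 1.5.0, limma 3.58.1).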

Additional observations from a re-analysis of the deposited data

How the results depend on the processing

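The 9 tests of Iapp and Tac4 were repeated under 13 other settings each, and 111 of the 117 values kept their direction and their side of the threshold. Iapp in Q+GL+ minus Pax3 passed with quantile normalization (-0.47, adjusted p = 0.015), median centring (-0.46, adjusted p = 0.029) and a filter of 5 FPKM (-0.43, adjusted p = 0.048), and not under its other 10 settings. With limma without the replicate block it had an adjusted p of 0.061 and with the replicate block one of 0.077. Tac4 changed sign in Pax7-465 minus Q-GL-, at -0.10 without Pax7-465 replicate 2 and -0.04 without Q-GL- replicate 2, within a range of -0.10 to 0.19 over the left-out libraries. It also changed sign in Pax7-465 minus Pax3, at 0.10 without Pax7-465 replicate 1, within a range of -0.19 to 0.10. None of these Tac4 values passed. Over all settings Iapp in Q-GL- minus Q-GL+ was 1.24 to 1.39, in Q-GL- minus Q+GL+ 1.96 to 2.15, in Q-GL- minus Pax3 1.53 to 1.68 and in Q+GL+ minus Q-GL+ -0.78 to -0.63. Of 564 values for 42 differences of other genes called here, 486 kept their call, 78 lost it and 0 changed sign. With quantile normalization, 1 precursor passed in Pax7-465 minus the mean of 4 groups (Pomc, 0.33) and 2 passed in Q+GL+ minus Q-GL+ (Pomc at 0.54 and Agt at -0.24), where Pomc was at -0.10 without it. The cause was not tested. Replicate numbers are shared between groups, but the replicate differences of 15 group pairs correlated at -0.158 to 0.173 across genes, over 0.1 in 2 of them, so they do not pair the libraries. The replicate block moved Q+GL+ minus Pax3 from 33 to 19 calls over all genes, and Q-GL- minus Q-GL+ from 524 to 483. For Iapp and Tac4 it changed no call, and of the other calls given here it ended those of Pcsk2 in Q+GL+ minus Q-GL+ (adjusted p = 0.056) and of Fam117a in Q-GL- minus Q-GL+ (adjusted p = 0.055). With a lone library in a group, its spread is assumed to equal that of the other groups. FPKM without counts give no detection limit, and the 95% intervals of the tested Tac4 differences reach from -0.34 to 0.30.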

Other observations

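The NoTag cells, whose isoform is not given, differed from the other 10 libraries in several genes related to Iapp. Calca, which encodes calcitonin and CGRP, was at 52.4 and 53.2 FPKM in NoTag against 10.4 to 16.0 FPKM elsewhere, and Adm, which encodes adrenomedullin, was at 3.43 and 3.25 FPKM against 12.5 to 18.7 FPKM. Iapp, at 29.4 and 27.2 FPKM, was within the range of the other libraries, and so was Tac4. Pcsk2 was at 65.6 and 64.9 FPKM in NoTag, above its 36.6 FPKM in the highest of the other libraries. Cck, the cholecystokinin gene, was at 1.61 and 2.26 FPKM and Uts2, the urotensin gene, at 1.43 and 2.44 FPKM, and both were listed at 0 in the other 10. These values have no test. They are not particular to peptide genes, since 733 of the 16385 genes were above 0 in both NoTag libraries and at 0 in the other 10. Summed FPKM also differed, at 627305 to 666609 in NoTag against 413794 to 483161, so levels compare only roughly.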
